A study of Mus musculus with 2 samples.

Results

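The activity-induced immediate early genes are a set of 38 genes out of the 55536 genes in the deposited gene tables. They were taken by symbol, and the set was chosen with the measured values in view, namely each gene's level, its count and its ratio between the libraries. Levels and ratios of the members are therefore given as a description, with no test. Total RNA of the left cerebral cortex was sequenced from 14-day-old males of B6CASTF1/J, the first-generation hybrid of C57BL/6 and CAST. No treatment, stimulus or genotype contrast is given in the labels, and both libraries share the strain, sex, age and tissue. The labels number 2 libraries as replicates of 1 group, each made from 300 ng of RNA, but list the same donor entry for both and mention 3 males, without stating whether tissue was pooled. By the labels, spread between the libraries cannot be assigned to animals, dissection or library making, and no p-value can be given. Depth was 28263266 gene counts in replicate 1 and 30862848 in replicate 2, so that a count of 0 would allow up to 3 counts, or 0.106 and 0.0972 CPM (counts scaled to library size).

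Immediate early genes are transcribed within minutes of a stimulus without needing new protein synthesis. In cortical neurons, calcium entry through synaptic receptors and voltage-gated channels activates kinases that act on factors already bound at these genes, chiefly CREB at the cyclic AMP response element (CRE) and SRF with its partners at the CArG box. Most of the products are transcription factors that switch on a later wave of genes, while others act directly at synapses or shut the signal off. Their messages are short-lived, and in the cortex they are used as a record of recent neuronal activity. Fos, Egr1 and Arc are the members most often used in this way.

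Promoter sequences are shown for some members on which the results below turn, and whether they carry this control was not tested. RefSeq promoter windows, from 250 bases before to 50 bases after the annotated start on GRCm38.p6, were present for 29 of the 38 members, in 35 windows. Windows of Arc, Dusp4, Egr1, Egr3, Ier2, Klf10, Nptx2, Sik1 and Trib1 were not used here. The 150 bases before the start are printed 5′ to 3′ in the direction of the gene for the 5 members with such a window, at least 100 counts on average and a ratio of at least 1.5. Plk2 and Dusp1 are shown beside them as members with the full CRE and a smaller ratio. Capitals mark TGACG and its reverse complement CGTCA (the core of the CRE), the full CRE TGACGTCA, the CArG box, and TATAAA. Fos lies at chr12:85473740-85473889 (plus strand), Fosb at chr7:19310046-19310195 (minus), Egr2 at chr10:67537719-67537868 (plus), Nr4a1 at chr15:101266696-101266845 (plus), Dusp5 at chr19:53528995-53529144 (plus), Plk2 at chr13:110394894-110395043 (plus) and Dusp1 at chr17:26508473-26508622 (minus).
Fos: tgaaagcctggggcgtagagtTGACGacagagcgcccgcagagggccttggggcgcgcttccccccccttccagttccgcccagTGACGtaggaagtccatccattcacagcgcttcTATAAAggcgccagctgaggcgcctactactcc
Fosb: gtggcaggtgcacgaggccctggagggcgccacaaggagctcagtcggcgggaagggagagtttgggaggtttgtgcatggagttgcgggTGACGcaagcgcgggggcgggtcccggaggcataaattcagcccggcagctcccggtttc
Egr2: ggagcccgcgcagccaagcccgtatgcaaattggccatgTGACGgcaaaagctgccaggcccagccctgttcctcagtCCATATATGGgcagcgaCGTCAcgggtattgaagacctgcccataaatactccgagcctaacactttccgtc
Nr4a1: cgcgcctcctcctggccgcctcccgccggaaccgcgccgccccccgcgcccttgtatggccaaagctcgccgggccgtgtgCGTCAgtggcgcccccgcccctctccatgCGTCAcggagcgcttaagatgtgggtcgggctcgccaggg
Dusp5: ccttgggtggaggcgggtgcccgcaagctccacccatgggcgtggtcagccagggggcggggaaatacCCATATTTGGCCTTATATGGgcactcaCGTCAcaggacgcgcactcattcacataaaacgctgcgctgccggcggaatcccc
Plk2: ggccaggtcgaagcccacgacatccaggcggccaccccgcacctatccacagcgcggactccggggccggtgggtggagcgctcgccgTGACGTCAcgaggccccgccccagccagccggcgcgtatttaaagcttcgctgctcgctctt
Dusp1: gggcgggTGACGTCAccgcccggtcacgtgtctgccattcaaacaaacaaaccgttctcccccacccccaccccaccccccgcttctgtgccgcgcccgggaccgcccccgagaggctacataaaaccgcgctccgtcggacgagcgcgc

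In these windows the Fos promoter holds TGACG from 66 to 62 bases before the start, again from 129 to 125 bases, and TATAAA from 33 to 28 bases. Egr2 has several annotated starts, and the window shown is that of Egr2-201, its most abundant transcript in these libraries. It carries a CArG box from 72 to 63 bases and CGTCA from 55 to 51 bases before the start. Dusp5 has the same arrangement, with adjoining CArG boxes that begin 82 and 72 bases before the start and CGTCA from 55 to 51 bases. The full CRE of Plk2 lies 62 to 55 bases before the start, and that of Dusp1 lies 143 to 136 bases before it.

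Over all member windows, read on both strands, the CRE core TGACG was found in 23 of 35 (65.7%, 20 genes), against 20.8% of the 32851 RefSeq windows of the same length. The full CRE, which contains that core, was found in 5 windows (14.3%), those of Btg2, Dusp1, Maff, Plk2 and Ppp1r15a, against 1.79%. The CArG box was found in 5 windows (14.3%) against 1.63%, but in only 2 of the 29 genes, Egr2 and Dusp5. Most of these 5 windows are of Egr2, and some of them hold the same site. Sites more than 250 bases before a start were not searched, nor were members without a window, Arc, Egr1 and Egr3 among them. The EGR site GCGNGGGCG was found in 9 (25.7%) against 5.55%, and TATAAA in 7 (20.0%) against 13.6%. The AP-1 site TGANTCA, at which FOS and JUN proteins bind, was found in 0 of 35 member windows and in 7.81% of all windows. The member windows had a median GC content of 62.7% against 52.7% for all windows, and the part of base composition in these shares was not tested. A match describes letters and does not show binding, and 5 of the 35 windows belong to Egr2 and overlap in part.

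All 38 members had at least 10 counts in both libraries, and 36 reached 1 TPM, a level scaled by transcript length and library, in both. The exceptions were Atf3 and Maff. The median level of the members was 10.4 TPM in replicate 1 and 10.6 in replicate 2. Their summed level was 694 and 866 TPM. Mean levels spanned from 0.325 TPM for Atf3 to 119 for Plk2, with 19 members at a mean of 10 or more, 4 of these at 50 or more (Plk2, Egr1, Jund and Rheb), and 10 members under 5.

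**Figure D1:**
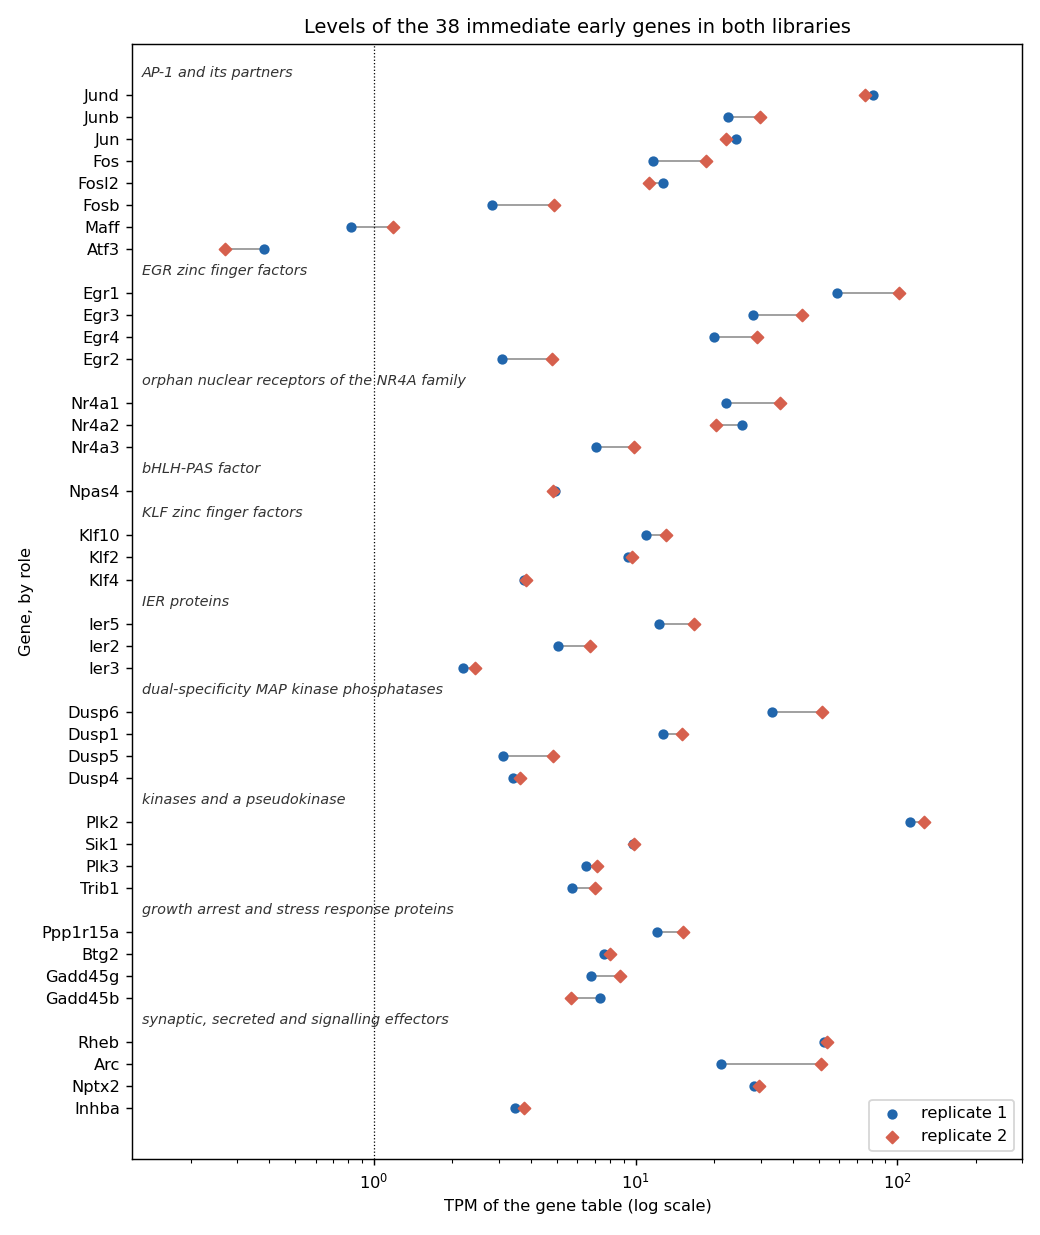
TPM of each member in replicate 1 (circles) and replicate 2 (diamonds) on a log axis, grouped by role, with a dotted line at TPM 1. Arc, Egr1, Fosb and Nr4a1 have the widest gaps upward in TPM, and Atf3 lies below TPM 1 in both.

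The libraries stand apart in markers of brain region, striatal markers most, and those values are given after the members. In bulk tissue, fewer cells of a type and less RNA per cell cannot be told apart. Ratios were computed from expected counts scaled by TMM, a method that sets the typical gene to no difference, and are given as replicate 2 minus replicate 1 on the log2 scale. Of the 38 members 32 were higher in replicate 2, where 49.9% of all 18965 genes tested were higher. The members' median difference was 0.26, or 1.19-fold, against 0.00 for all genes. At least 1.5-fold higher were 9 members (Arc, Egr2, Fosb, Egr1, Fos, Egr3, Nr4a1, Maff and Dusp5), against 4.35% of all genes. At least 1.5-fold lower were 0 members, against 6.61%. Low counts make large ratios common, so the same was read among the 12624 genes that averaged at least 100 counts: 8 of 35 members were at least 1.5-fold higher against 0.974%, and 30 of 35 were higher by any amount against 51.9%. Among those genes, ranked from the highest difference, Arc was 8th, Egr2 10th, Fosb 23rd, Egr1 41st and Fos 44th. A 95% interval of the ratio from counting error alone lay above 1 for 19 members and below 1 for 5, against 14.9% and 13.7% of all genes. At a mean of at least 100 counts, the same 19 and 5 of 35 members stood against 2447 and 2032 of 12624 genes. Such intervals leave out every error but counting. The ratio was one of the values that chose the set, and nothing is inferred from these shares.

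**Figure D2:**
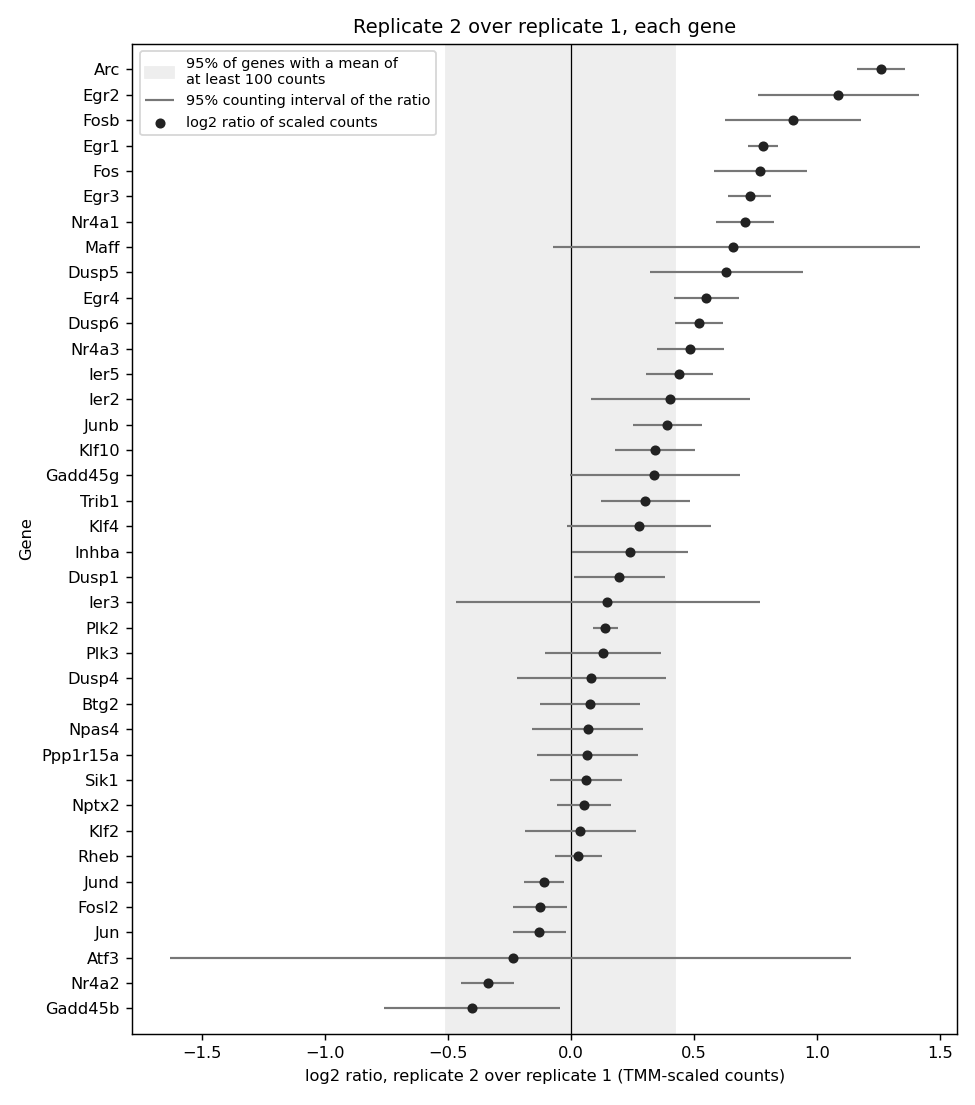
The log2 ratio of replicate 2 over replicate 1 for each member, with bars for the 95% counting interval and a grey band that holds the central 95% of differences among the 12624 well-counted genes (-0.51 to 0.42). Of the 35 members at that count, 12 lie above the band and 0 below it, with Arc highest at 1.26.

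Members of the AP-1 family went in different directions, with 4 of 8 higher in replicate 2 and 4 lower. AP-1 is a pair of a FOS protein and a JUN protein, or of 2 JUN proteins, that binds DNA through a leucine zipper. Fos (chromosome 12, 85473890 to 85477273, GRCm38), the FOS subunit most rapidly induced by activity, was at 11.6 TPM in replicate 1 and 18.6 in replicate 2, from 361 and 659 counts. Fosb (chromosome 7, 19302696 to 19310051), whose truncated splice form accumulates with repeated stimulation, was at 2.84 and 4.88 TPM. The log2 difference was 0.77 for Fos and 0.89 for Fosb. Junb, the JUN subunit that moves with Fos after stimulation, was at 22.5 and 29.8 TPM (0.39).

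Of the other 5 AP-1 members 4 were lower in replicate 2. Jun was at 24.1 and 22.1 TPM (-0.13), and Fosl2, a FOS protein of slower and longer induction, was at 12.8 and 11.3 (-0.12). Jund, known for steady expression in resting cells, was the highest AP-1 gene at 80.7 and 75.04 TPM (-0.11). These 3 were lower by less than 1.2-fold. The stress-induced partner Atf3 was at 0.38 and 0.27 TPM from 11 and 10 counts, and the small MAF protein gene Maff was at 0.82 and 1.19 TPM from 26 and 44 counts. Counting intervals of both ratios contain 1, also for Maff, whose difference of 0.62 places it among the 9. Summed over the family, the level was 156 and 163 TPM.

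The EGR zinc finger factors were higher in replicate 2 in 4 of 4 members, each with a counting interval above 1. EGR proteins bind GC-rich sites and regulate synaptic genes. Egr1 (chromosome 18, 34859823 to 34864984), the member most used as an activity marker, was at 58.8 TPM in replicate 1 and 101.5 in replicate 2, from 3512 and 6459 counts. Its difference of 0.78 had a counting interval of 0.72 to 0.84. Egr3 (chromosome 14, 70077203 to 70082614), induced by many of the same signals, was at 28.1 and 43.2 TPM (0.73). Egr4 was at 19.9 and 29.2 TPM (0.55, or 1.46-fold), the member nearest below the 1.5-fold line, with Dusp5 and Maff (both 1.54-fold) nearest above it.

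Egr2 (chromosome 10, 67535475 to 67542188), known also for its role in myelinating Schwann cells, was the lowest of the family at 3.08 and 4.80 TPM. Its counts of 115 and 261 gave a difference of 1.07, or 2.10-fold, whereas its TPM ratio was 1.56. The gap lies in 1 short transcript: Egr2-207, of 356 nt, was assigned 4.89 counts in replicate 1 and took 32.5% of the gene's TPM there, against 1.32% in replicate 2. The main transcript Egr2-201 was at 2.02 and 4.41 TPM.

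The nuclear receptors of the NR4A family went in different directions. These factors act without a known physiological ligand. Nr4a1 (chromosome 15, 101254269 to 101274795) was at 22.1 TPM in replicate 1 and 35.7 in replicate 2 (0.71). Nr4a3 was at 7.04 and 9.87 (0.49). Nr4a2, which also marks a subset of deep-layer and claustral neurons, was lower in replicate 2, at 25.6 and 20.3 TPM (-0.34), with a counting interval of -0.44 to -0.23. Gadd45b, which takes part in DNA demethylation and stress signalling, was the only member lower than Nr4a2 in its difference, at 7.31 and 5.68 TPM (-0.40).

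Npas4, a bHLH-PAS factor known to be induced by calcium entry and selective for neurons, differed little, with 4.93 TPM and 309 counts in replicate 1 and 4.85 TPM and 347 counts in replicate 2 (0.07). Its counting interval ran from -0.16 to 0.29, which lies below the differences of Arc, Egr1 and Fos. The KLF factors, zinc finger proteins of growth control, were at 11.0 and 13.1 TPM for Klf10 (0.34), with Klf2 and Klf4 between 3.76 and 9.65. The IER genes encode small nuclear proteins of less defined function. Ier5 was at 12.3 and 16.7 TPM (0.44), and Ier2 and Ier3 lay between 2.19 and 6.72. All 6 of these KLF and IER genes were higher in replicate 2 by the counts, none by 1.5-fold.

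The feedback members include the dual-specificity phosphatases, which remove phosphate from MAP kinases and so limit the signal that induced them. All 4 were higher in replicate 2, by different amounts. Dusp6, a cytoplasmic ERK phosphatase, was at 33.1 TPM in replicate 1 and 51.4 in replicate 2 (0.52 by counts, and 1.55-fold by TPM). Dusp5 (chromosome 19, 53529109 to 53542431), a nuclear ERK phosphatase, was at 3.11 and 4.82 TPM (0.62). Dusp1, which prefers p38 and JNK, was at 12.7 and 15.1 (0.20), and Dusp4 stayed between 3.41 and 3.62 TPM (0.08). By counts the order was Dusp5, Dusp6, Dusp1 and Dusp4, and whether it follows their substrates was not tested.

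The 4 kinase genes were all higher in replicate 2 by less than 1.5-fold. Plk2, a polo-like kinase that weakens synapses after strong activity, was the highest of all 38 members, at 111 TPM in replicate 1 and 126 in replicate 2 (0.14). Plk3, the salt-inducible kinase Sik1 and the pseudokinase Trib1 lay between 5.70 and 9.85 TPM, with differences from 0.06 to 0.30. Of the growth arrest and stress response genes, Gadd45b, given above, was lower and the other 3 were higher, none by 1.5-fold. Ppp1r15a, the phosphatase subunit that reverses translation arrest, was at 12.1 and 15.2 TPM, but only 0.07 higher by counts. Btg2 and Gadd45g lay between 6.75 and 8.71 TPM, with differences of 0.08 and 0.33.

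The effector Arc had the largest difference of any member. Arc (chromosome 15, 74669083 to 74672570) encodes a capsid-forming protein that drives the removal of AMPA receptors from synapses. It was at 21.3 TPM in replicate 1 and 51.0 in replicate 2, from 1193 and 3057 counts. The difference was 1.26, or 2.39-fold, with a counting interval of 1.16 to 1.36, and the second quantification gave 29.5 and 70.4 TPM. Both annotated transcripts were higher in replicate 2, and Arc-201 held 66.9% of the gene in replicate 1 and 66.8% in replicate 2.

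The other 3 effectors were also higher in replicate 2, by less than Arc. Nptx2, a secreted pentraxin that clusters AMPA receptors, was at 28.4 and 29.6 TPM (0.05). Rheb, the small GTPase that activates mTORC1, was at 52.6 and 53.9 (0.03). Inhba, an activin subunit, was at 3.47 and 3.75 (0.24). In all, 17 of 38 members differed by less than 1.2-fold between the libraries.

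**Figure D3:**
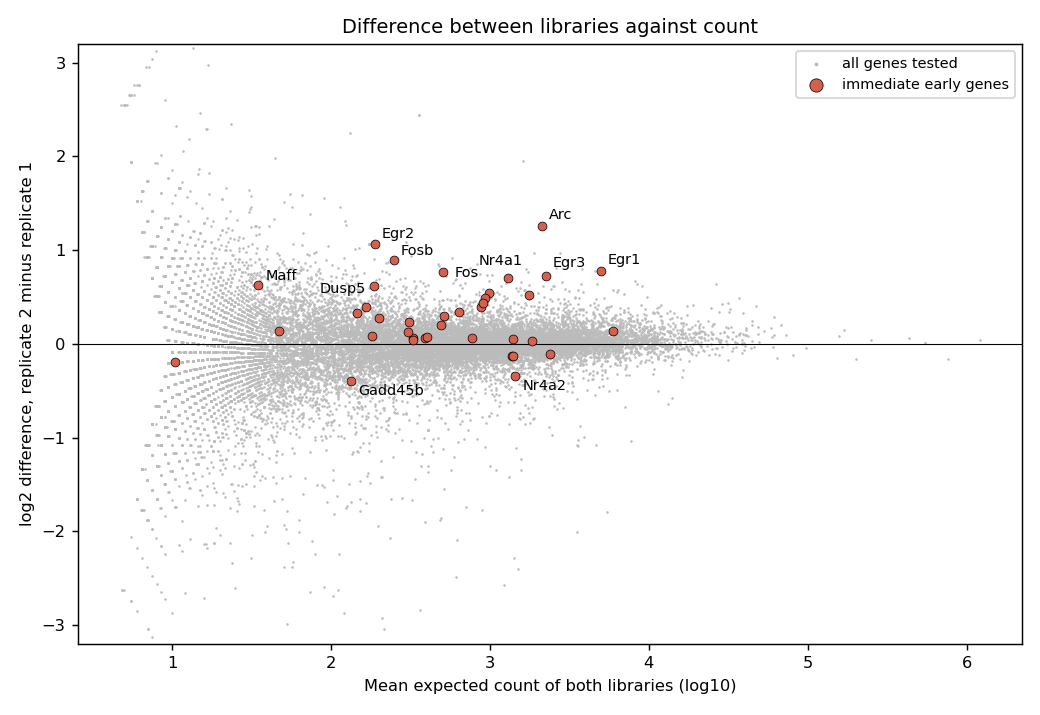
Log2 difference (replicate 2 minus replicate 1) against the log10 of the mean expected count for all 18965 genes tested (grey) and the 38 members (red); 48 genes lie outside the plotted range of 3.2 either way. Arc (1.26), Egr2 (1.07) and Fosb (0.89) have the largest differences among the members, and most members lie within the grey cloud.

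Lists of other genes of the same response had smaller medians than the members, though single genes overlapped with them. Of 16 activity-regulated effectors of the later response, 10 were higher in replicate 2 and 6 lower, with a median of 0.19 and 1 past 1.5-fold, the prostaglandin synthase gene Ptgs2 (2.58 and 3.97 TPM, 0.62). Counting intervals lay above 1 for 10 of these 16, and the scaffold gene Homer1 (85.6 and 120 TPM) differed by 0.53. The highest of this list were Rgs4, a brake on G protein signalling (181 and 236 TPM), and Vgf, a neuropeptide precursor (136 and 126). Among 20 other rapid-response genes 19 were measured, 15 of them higher and 4 lower, with a median of 0.15 and 0 past 1.5-fold in either direction. The clock-linked repressor Bhlhe40 (24.7 and 35.2 TPM, 0.57) came nearest to that line. The highest of these were Klf9 (100.9 and 114 TPM) and the clock gene Per1 (46.5 and 51.1). Fosl1, the remaining FOS family gene, was listed at 0 in both libraries.

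The factors that act upstream hardly differed. Of 16 genes of the SRF, CREB and MEF2 pathway 11 were higher and 5 lower, with a median of 0.04. Mef2c, also abundant in cortical excitatory neurons, was the 1 past 1.5-fold and the highest, at 313 and 472 TPM. Heat shock and unfolded protein response genes, read as a sign of stress during tissue handling, had 5 of 7 higher with a median of 0.04. Counting intervals lay above 1 for 3 of these 7 and below 1 for 0. The largest difference was that of Hspb1 (0.55, from 44 and 70 counts). The highest of this list were Hspa5 (123 and 152 TPM, 0.31) and Hsph1 (112 and 127, 0.24). Hspa1a and Hspa1b, whose near-identical sequences share reads, lay between 1.60 and 2.50 TPM. The 12 housekeeping genes had a median of -0.01.

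Markers of cell type and region differed between the libraries in both directions. Excitatory neuron markers were higher in replicate 2 in 7 of 7, with a median difference of 0.30 and a summed level of 1600 TPM in replicate 1 and 1882 in replicate 2, and upper-layer markers in 7 of 7, with a median of 0.41 and sums of 263 and 356. Emx1 (11.65 and 18.15 TPM) was past 1.5-fold in the first list, and Rorb (20.4 and 34.4) and Pou3f2 in the second. Lower in replicate 2 were 11 of 11 striatal markers (median -1.90, sums 686 and 211), with Drd2 at 13.6 and 1.87 TPM. Oligodendrocyte markers were lower in 6 of 6 (median -0.61, sums 1070 and 701). Deep-layer markers were divided (median -0.36, sums 221 and 159), with 4 of 7 lower, 3 of them by 1.5-fold, and 3 higher. The largest differences of that list were in Foxp2 (8.75 and 3.30 TPM) and Bcl11b (44.15 and 19.36). Whether the deep-layer values reflect cortical layers or striatal content was not tested. Inhibitory neuron markers were mixed (median -0.37, sums 500 and 397): 4 of 6 were lower, 1 of them by 1.5-fold, while Vip (13.95 and 23.0 TPM) and Pvalb (13.85 and 21.2) were over 1.5-fold higher. The markers of cortical excitatory neurons that define the labelled tissue were thus present in both libraries, at different levels.

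Other marker lists also differed. Red blood cell markers were higher in 6 of 6 (median 0.73, sums 815 and 1266 TPM) and choroid plexus markers in 5 of 7 measured (median 0.68, sums 36.1 and 127). Most of the choroid plexus sum was Ttr (30.4 and 118 TPM), and Clic6 was lower in replicate 2 (1.17 and 0.98 TPM, from 80 and 37 counts). Endothelial markers were higher in 6 of 6 (median 0.20, sums 79.7 and 87.0), microglial markers in 5 of 6 (0.10, sums 118 and 118), and astrocyte markers in 3 of 6 (-0.01, sums 1354 and 1397). No marker of these lists was at 0 TPM in both libraries. The part of each in the members' differences was not tested. With the median ratio of the 7 excitatory neuron markers set to no difference, in place of TMM, the members' median was -0.038, 18 of 38 were higher, and 3 (Arc, Egr2 and Fosb) were at least 1.5-fold higher. That scaling moves every gene alike: over all genes the median was then -0.29, with 12.3% higher and 2.1% at least 1.5-fold higher.

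**Figure D4:**
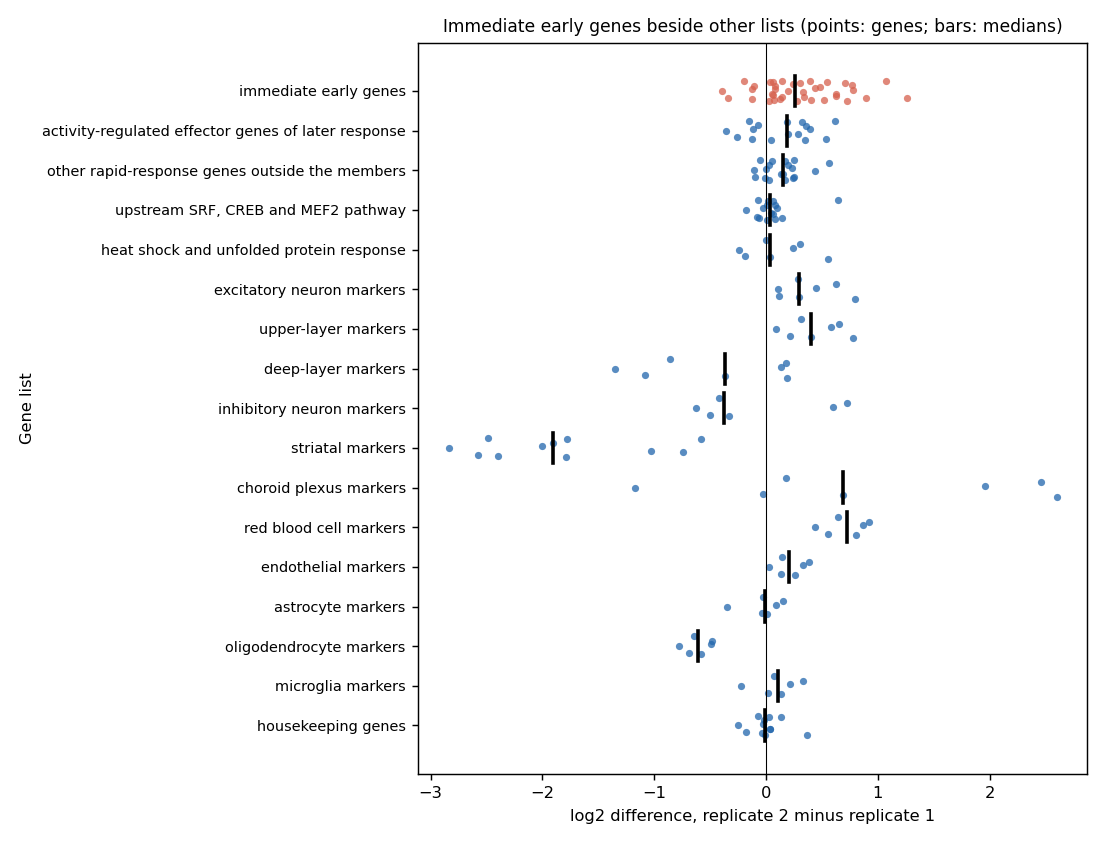
Log2 difference of each gene (points) and the median (bars) for the members (red) and for 16 other lists (blue). The members' median of 0.26 lies between those of the later effectors (0.19) and the excitatory neuron markers (0.30), and striatal markers lie lowest at -1.90.

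Which transcripts made up these levels was read from the transcript tables. Of the 38 members 11 have 1 annotated transcript and 27 have several. In the first quantification, a single transcript held over 50% of the TPM of its gene in each library in 34 members. The most abundant transcript there was protein-coding in all 38. The transcript tables named the same most abundant transcript for 25 of the 27, all but Atf3 and Nr4a1. For Atf3 the second gave Atf3-202, a processed transcript that is not protein-coding, at 69.8% and 64.1%. For Nr4a1 the first table gave Nr4a1-201 at 76.5% and 78.7%, and the second gave Nr4a1-202 at 96.9% and 96.7%.

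Transcripts that are not protein-coding took over 10% in both libraries in 8 members. Retained introns made up Egr3-202, at 35.8% of Egr3 in replicate 1 and 36.2% in replicate 2, and 16.6% and 19.6% of Dusp1. For Npas4 the retained-intron form took 11.7% and 28.4%, and a transcript annotated for nonsense-mediated decay took 20.7% and 3.45%. Processed transcripts took 27.8% and 19.9% of Fos. These shares depend on the quantification: in the second table, transcripts that are not protein-coding took 42.3% and 38.9% of Fos and 22.3% and 26.3% of Egr3, and the share of Gadd45b was 0% and 4.79% in place of 16.5% and 16.6%. The 4 members without a majority transcript in both libraries were Egr3, Fosb, Maff and Atf3. Fosb-201 held 49.2% and 79.5%, Maff-201 held 66.3% and 46.6%, and the shares of Atf3 rest on 11 and 10 counts. How reads were assigned between forms that share exons is not given in the sources used here.

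**Figure D5:**
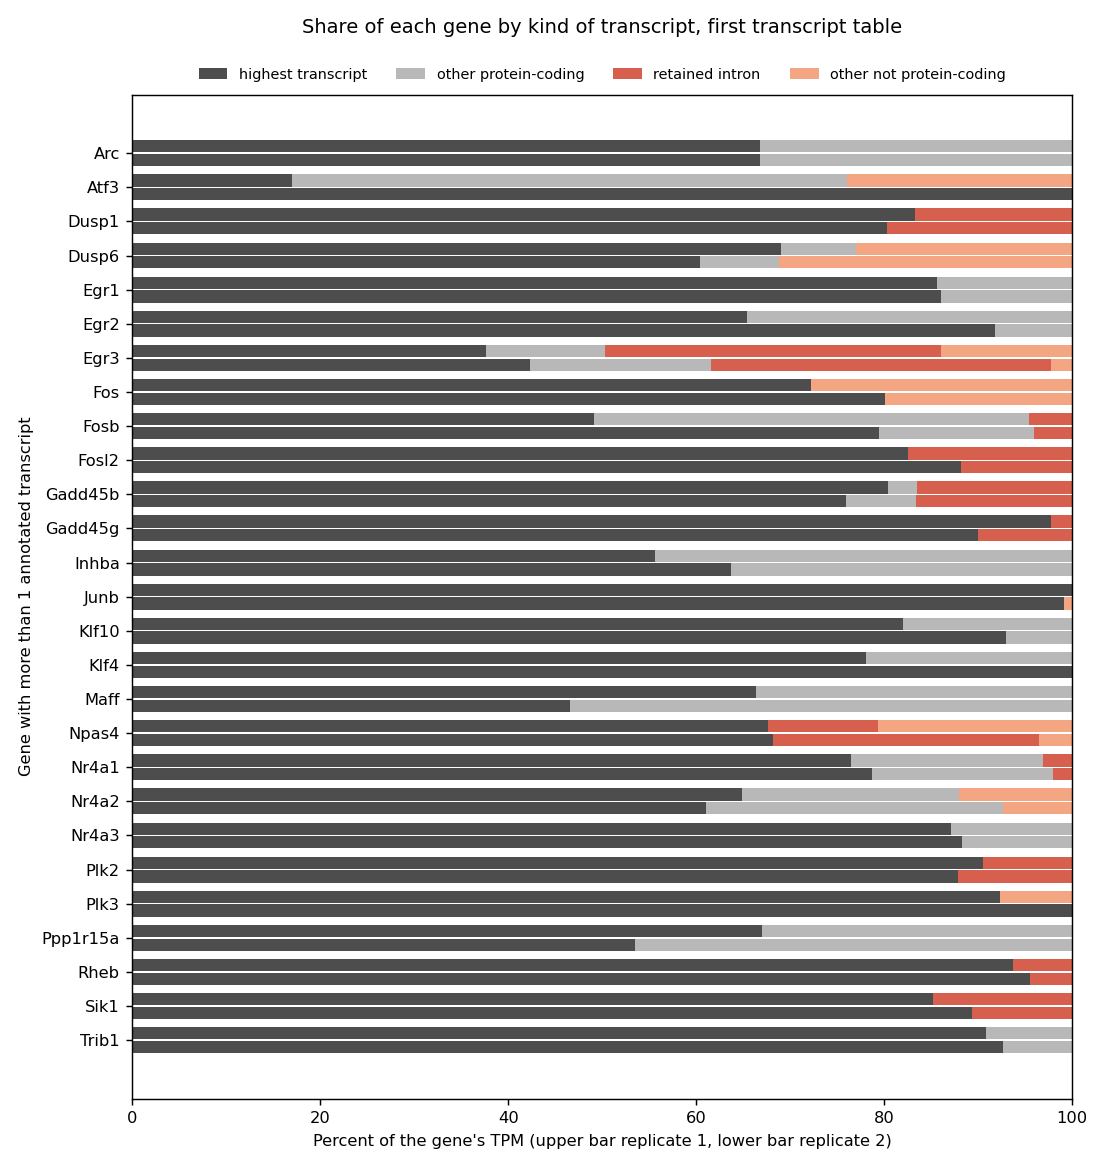
Percent of each gene's TPM in its most abundant transcript, other protein-coding transcripts, retained introns and other transcripts, for the 27 members with several transcripts (upper bar replicate 1, lower bar replicate 2). Egr3 has the largest retained-intron share, near 36% in both libraries in the table plotted.

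Short genes were common among the members. By the GENCODE M21 annotation on mm10, 25 of 38 (65.8%) spanned under 10 kb, against 23.3% of the 12923 protein-coding genes at TPM 1 in both libraries. The median span was 5.61 kb against 26.1 kb, and the most abundant transcript had a median of 4 exons against 9. Median mRNA length was closer, at 2742 nt against 2918. Jun, Junb, Jund, Ier2 and Ier5 have a single exon.

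The AUUUA element, which marks many short-lived messages for decay, is written ATTTA in the annotation. It was present in the 3′ untranslated region of 32 of 38 members (84.2%), against 64.8% of those protein-coding genes, and in 2.23 copies per kb against 1.82. The longer form TATTTAT was present in 18 members (47.4%) against 27.6%. The copies per kb are pooled over all genes of a set, so single genes can weigh heavily. Inhba had 21 copies of ATTTA in 4492 bases, the most of any member, and Fos had 4. Egr4, Ier2, Trib1, Gadd45b, Gadd45g and Arc had 0. These features were counted after the levels had been seen, and whether they bear on the levels was not tested.

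Exons of 7 members overlap those of another gene on the opposite strand, and whether counting used strand is not given in the sources used here. Jund shares 877 of its 1668 exon bases with the antisense gene Gm11175 (15.4 and 12.9 TPM), and Junb shares 173 bases with the antioxidant gene Prdx2 (192 and 183 TPM). For Jun, Dusp1, Dusp5, Plk3 and Ppp1r15a the shared part ran from 11 to 547 bases. Levels of these 7 genes may include reads of their partners.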

How the data were processed

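The 2 libraries are replicates of 1 group, so they were described and not tested. Per the file headers and deposited description files, alignments to the mm10 transcriptome (GENCODE M21) gave the gene table and first transcript table, and the reads themselves gave the second. For the aligner, quantifier, versions and strand use, the answer is not given in the sources used here. The deposited expected counts are estimated reads, not normalized. The deposited TPM values are scaled to all entries of a file, and the deposited percent gives each transcript's share of its gene's abundance.

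Expected counts were rounded, genes with at least 10 counts in either library were kept (18965), and log2 differences came from edgeR 4.0.16 under R 4.3.3 (TMM factors, prior count 2). DESeq2 1.42.0 gave alternative size factors. Spike-ins, 0.404% and 0.387% of the counts, and unnamed entries were left out of library sizes. Counting intervals are exact, at the 95% level. Over 17786 genes the chi-square between libraries was 11.97 per degree of freedom, so the files are not 1 library deposited again. The steps were tested on simulated data. Python 3.11.15 with pandas 2.3.3, scipy 1.17.1 and matplotlib 3.10.9 did the rest. Promoter windows are from RefSeq (GRCm38.p6), matched by symbol for 29 members. Such a window need not lie at the start of the transcript measured. That of Jund (chromosome 8, 70697489 to 70697788) lies before the measured gene, which begins at 70698949.

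The members and lists were chosen with earlier results of these data known. Values are given for members with a mean TPM of at least 10 or a 1.5-fold difference, and for the others as ranges, apart from members named for their role, place or counts, which were added after their values were seen. Of each other gene list, the 2 highest genes by TPM and the largest differences past 1.5-fold with at least 100 counts were to be named; for the marker lists at most 2 genes are given, and some genes that fall under this rule are not reported here.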

Additional observations from a re-analysis of the deposited data

How the results depend on the processing

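Across 9 alternatives (DESeq2 size factors, library totals, spike-in totals, 12 housekeeping genes, a prior count of 0.5, no filter, at least 100 mean counts, TPM ratios and the second transcript table) the members' median difference ran from 0.23 to 0.31. In these, 32 of 38 were higher (31 by TPM, 30 of 35 at 100 counts), 9 were at least 1.5-fold higher (8 of 35) and 0 lower. Scaling to marker lists, chosen after seeing the data, did not keep these values: by the excitatory neuron markers the median was -0.038, 18 members were higher, 3 at least 1.5-fold higher and 2 lower, and by the upper-layer markers the median was -0.15, with 13 higher, 2 at least 1.5-fold higher and 2 lower. Under these scalings the median of all genes was -0.29 and -0.40, 12.3% and 8.29% of all genes were higher and 2.1% and 1.69% at least 1.5-fold higher, and the members lie 0.26 above it in both by construction. The members' median level of 10.5 TPM was 14.5 in the second table and 22.4 when TPM was rescaled to nuclear protein-coding genes, and it was 10.6 without replicate 1 and 10.4 without replicate 2. Members at TPM 1 ran from 28 (at TPM 5) to 38 (second table), and those with 1 transcript over 50% from 26 (at 75%) to 37. Maff fell under 1.5-fold by TPM (0.49) and in the second table (0.57), while Dusp6 by TPM (0.63) and Gadd45g in the second table (0.59) passed it. Atf3 was -0.38 by TPM and 0.03 in the second table, Klf4 0.02 by TPM, Ppp1r15a 0.32 by TPM, Inhba 0.11 by TPM and Ier3 0.39 in the second table. The striatal median was -2.01 by TPM and -1.80 in the second table, and the choroid plexus median was 1.02 with no filter and 1.06 at 100 counts. The cause of these moves was not tested. No paired analysis was possible because the libraries form 1 group. With 10 to 51 counts, Atf3, Maff and Ier3 are limited by depth.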
